A study of Oryza sativa with 12 samples.

Results

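The NaCl response of *OsERF106MZ*-overexpressing rice shoots (OE) was compared with that of Tainung 67 shoots, probe by probe. For each probe the response is the log2 signal with 150 mM NaCl less that with 0 mM NaCl, and the value described here is the response in OE minus the response in Tainung 67. A value above 0 means that NaCl raised the signal more, or lowered it less, in OE. All 12 arrays of the series enter it, 3 in each of 4 groups, and 37144 of the 42477 probes on the arrays were tested.

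The 4 groups were Tainung 67, a *japonica* cultivar, without NaCl and with 150 mM NaCl, and OE in the same cultivar without NaCl and with 150 mM NaCl. The seedlings were 7 days old when the 1-day treatment began, and RNA came from the aerial parts. In OE the transgene is driven by the cauliflower mosaic virus 35S promoter, which is active in most tissues, so OE differs from Tainung 67 before any NaCl is given. The study made OE lines with *OsERF106MZ* alone and with a fusion to green fluorescent protein. The labels do not say which was hybridised, and labelled cRNA was pooled before hybridisation, so n counts arrays and p-values measure the spread between arrays, part of which may be technical.

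ERF proteins are plant transcription factors that bind DNA through an AP2/ERF domain and take part in the responses to ethylene and to stress. High NaCl stresses rice through osmotic water loss and through the build-up of sodium ions, and much of the transcriptional response runs through the hormone abscisic acid (ABA), which switches on transcription factors, protein phosphatases and protective proteins. A gene that OE already expresses at a high level without NaCl, and a gene that OE cannot raise with NaCl, both give a smaller response, so the level in each group is given beside each response.

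Probes are named by the rice locus of the MSU annotation where the study's gene lists give one, and otherwise by their number on the array design (CUST). A locus was known for 1618 of the tested probes. Those lists hold genes that differ between the genotypes, so a probe with a locus is more likely than others to show a genotype difference, and the share of named probes below says nothing about the response. The lists give no function, and none is stated for loci known only by their number. The 2 digits after Os in a locus name give its chromosome.

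The arrays lay on 3 slides of 4 arrays each. Replicates 1 and 3 of Tainung 67 were on slide 1 and those of OE on slide 2. Slide 3 carried replicate 2 of all 4 groups. Every slide thus held both NaCl conditions. Each slide was read in a session of its own, so genotype, slide and session cannot be told apart for replicates 1 and 3. Replicates 1 and 3 of a group correlated at 0.993 to 0.9954 across probes, and replicate 2 correlated with them at 0.9726 to 0.9853. The lowest of these values, 0.9726 and 0.9732, belonged to replicate 2 of Tainung 67 with NaCl, and results are given with and without that array where it changed them. The markers of shoot and root listed for this work had no probe with a known locus, so the tissue on the labels was not checked.

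Probes that responded to NaCl in both genotypes nearly all moved the same way. In Tainung 67, 3318 probes passed (8.93% of those tested, with 1844, or 4.96%, up and 1474, or 3.97%, down), and in OE 3649 passed (9.82%, with 2296, or 6.18%, up and 1353, or 3.64%, down), where passing means a Benjamini-Hochberg adjusted p under 0.05 by limma and a change of more than 2-fold. Of the 1842 probes that passed in both, 1836 moved in the same direction, 1286 upward and 550 downward. The probes raised in both had a median log2 response of 1.72 in Tainung 67 and 1.87 in OE, and those lowered in both had medians of -1.35 and -1.38. A line fitted through the responses of all tested probes, with error in both directions, had a slope of 1.00 for OE on Tainung 67, and 78.7% of probes had the same sign. The slope was 0.69 on slide 3 alone and 1.13 between slide 1 and slide 2, and it was 1.09 without replicate 2 of Tainung 67 with NaCl. Tainung 67 had the wider spread of responses on slide 3 (SD 0.98 log2 against 0.74 in OE) and the narrower one on the other slides (0.73 on slide 1 against 0.80 for OE on slide 2).

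**Figure D1:**
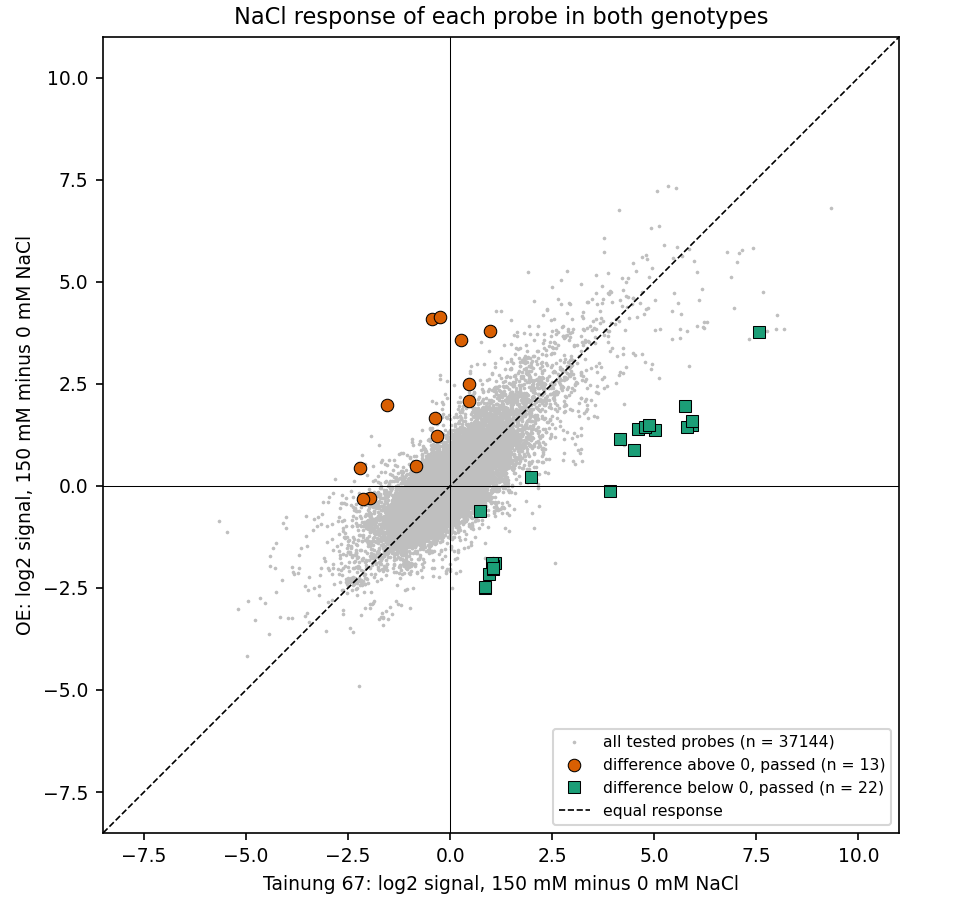
The log2 NaCl response of each tested probe in Tainung 67 (horizontal axis) and OE (vertical axis). Squares are the 22 probes with a difference (OE minus Tainung 67) below 0, and circles are the 13 with a difference above 0. They lie away from the dashed line of equal response, along which the 37144 probes are spread.

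The difference of the responses passed for 35 probes, 0.0942% of those tested. It was above 0 for 13 (0.035%) and below 0 for 22 (0.0592%), and its fitted size ran from 1.32 to 4.53 log2 units, with standard errors of 0.18 to 0.62. For 4 of the 13 above 0, LOC_Os11g40530, CUST_12261, CUST_40494 and CUST_33327, a whole group or more was not above background, so that their fitted differences are not measured sizes. For comparison, the median size over all tested probes was 0.237, and the values at the 5th and 95th percentiles were -0.641 and 0.791. Before adjustment, 1003 probes (2.7%) had a p under 0.05 and a difference of more than 2-fold. Without replicate 2 of Tainung 67 with NaCl, 114 probes passed (0.307%, with 71, or 0.191%, above 0 and 43, or 0.116%, below 0), and all 35 were among them.

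Few of the probes that passed in 1 genotype alone also passed the difference. Of 1476 probes that passed in Tainung 67 only, 6 (0.407%) passed the difference, and of 1807 that passed in OE only, 11 (0.609%) did. The 553 probes raised in Tainung 67 only had a median response of 1.27 there and 0.70 in OE, and 512 of them had the same sign in OE. The 1009 raised in OE only had medians of 1.24 in OE and 0.71 in Tainung 67, and 957 had the same sign. The 923 lowered in Tainung 67 only had medians of -1.30 and -0.67, and the 798 lowered in OE only had medians of -1.18 in OE and -0.78 in Tainung 67.

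Of the 35 probes, 10 were raised in both genotypes but less in OE, 3 were raised in Tainung 67 only, 3 were lowered in Tainung 67 only, 8 were raised in OE only, 3 were lowered in OE only, 6 moved in opposite directions, and 2 passed in neither genotype alone. All 22 probes with a difference below 0 were higher in OE than in Tainung 67 without NaCl. Of the 13 with a difference above 0, 10 were lower in OE without NaCl and all 13 read higher in OE with NaCl, although CUST_33327 was at background in both genotypes there. A level in OE without NaCl that lies above that in Tainung 67 also enters the difference with a minus sign, so the 2 quantities are not independent. A locus was known for 7 of the 22 and 5 of the 13.

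**Figure D2:**
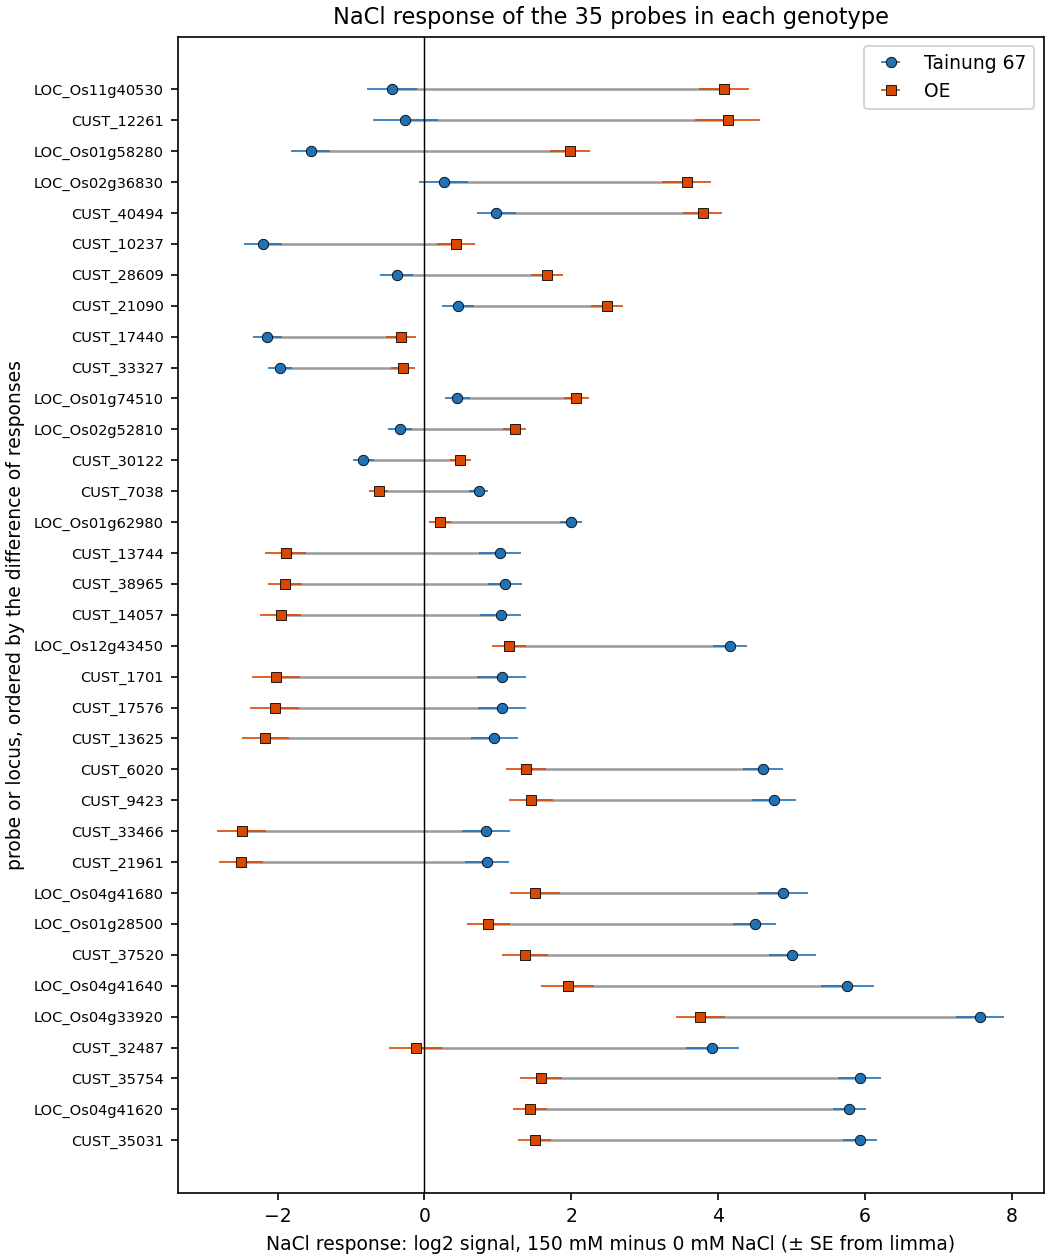
The log2 NaCl response (± SE from limma, 3 arrays per group) of the 35 probes in Tainung 67 (circles) and OE (squares), ordered by the difference of the responses. From LOC_Os11g40530 at the top (4.53) to CUST_35031 at the bottom (-4.43), the grey line spans the fitted responses, which for LOC_Os11g40530, CUST_12261, CUST_40494 and CUST_33327 include groups at background.

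The largest group held probes that NaCl raised strongly in Tainung 67 and that stood high in OE already without NaCl. The clearest was LOC_Os04g41620 (CUST_8582). In Tainung 67 its log2 signal was 6.66, 5.95 and 6.16 without NaCl and 12.27, 11.55 and 12.32 with NaCl. In OE it was 11.53, 11.70 and 11.74 without NaCl and 13.30, 13.06 and 12.94 with NaCl. The OE arrays without NaCl thus read about as high as the Tainung 67 arrays with NaCl, and the highest values were those of OE with NaCl. The response was 5.79 in Tainung 67 and 1.44 in OE, a difference of -4.35 (SE 0.33, adjusted p = 0.0011).

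Probes CUST_35031 and CUST_35754, which have no known locus, had almost the same profile. After each probe was centred on its own mean, no array differed between these 3 probes by more than 0.52 log2 units, and the mean difference of a pair was 0.13 to 0.23. CUST_35031 went from 6.60, 5.98 and 6.37 to 12.59, 11.75 and 12.41 in Tainung 67 and from 11.96, 11.94 and 12.08 to 13.73, 13.30 and 13.45 in OE. The difference was -4.43 for CUST_35031 (SE 0.32, adjusted p = 0.0011) and -4.34 for CUST_35754 (SE 0.41, adjusted p = 0.00593). They were the 3 probes of the 35 that passed in each of the 12 fits that left out 1 array. Whether the 3 probes read 1 transcript or several is not known, so they were not taken as 3 separate genes.

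LOC_Os04g41640 (CUST_6249) and LOC_Os04g41680 (CUST_29858) lie near LOC_Os04g41620 by their locus numbers on chromosome 4 and had the same kind of profile. LOC_Os04g41640 rose from 6.10, 6.23 and 4.74 to 11.70, 11.26 and 11.38 in Tainung 67, and from 10.68, 10.52 and 10.81 to 12.77, 12.13 and 12.96 in OE. Its difference was -3.81 (SE 0.50, adjusted p = 0.0279), and 1 array of Tainung 67 without NaCl was the only one on which it was dim. It did not pass with processed signals shifted to the 75th percentile or with the authors' normalized values. LOC_Os04g41680 rose from 6.02, 5.55 and 5.63 to 10.62, 10.89 and 10.32 in Tainung 67, and from 10.52, 10.52 and 11.10 to 12.87, 11.35 and 12.42 in OE, a difference of -3.38 (SE 0.48, adjusted p = 0.0347). In both loci the lowest OE array with NaCl was replicate 2. Neighbouring loci of similar sequence can share signal on an array, and the probe sequences needed to look at this were not used here. These loci passed in 4 and 3 of the 12 fits that left out 1 array.

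Probes CUST_37520, CUST_9423 and CUST_6020, without a known locus, resembled LOC_Os04g41680 within 0.56 log2 units on every array after centring. Their differences were -3.63, -3.31 and -3.23, and they passed in 8, 6 and 9 of the 12 fits that left out 1 array. With a normexp offset of 50, CUST_9423, CUST_6020 and LOC_Os04g41680 did not pass. CUST_9423 was well above background on 2 of the untreated Tainung 67 arrays. Together these 4 probes had responses of 4.61 to 5.01 in Tainung 67 and 1.37 to 1.5 in OE, and they were higher in OE by 4.68 to 5.18 without NaCl and by 1.45 to 1.67 with NaCl. The difference was larger on slide 3 (-4.53 to -4.21) than on slides 1 and 2 (-3.18 to -2.74).

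LOC_Os12g43450 (CUST_2134) read 5.61, 5.33 and 5.74 in Tainung 67 without NaCl and 9.46, 10.32 and 9.37 with NaCl. In OE it read 10.85, 11.13 and 11.21 without NaCl and 12.26, 12.15 and 12.23 with NaCl. Every OE array, treated or not, was above every Tainung 67 array. The difference was -3.01 (SE 0.33, adjusted p = 0.0113), with responses of 4.16 and 1.15. This probe and the next passed in 11 of the 12 fits that left out 1 array, and both lost their call without replicate 3 of OE without NaCl.

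LOC_Os01g28500 (CUST_32430) rose from 8.48, 7.80 and 7.75 to 12.20, 13.09 and 12.24 in Tainung 67. In OE it was 12.16, 12.45 and 12.86 without NaCl and 13.60, 13.22 and 13.26 with NaCl, a rise of 0.87 that was under 2-fold. The levels of untreated OE and treated Tainung 67 overlapped. The difference was -3.63 (SE 0.41, adjusted p = 0.012).

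LOC_Os04g33920 (CUST_11592) had the largest response in Tainung 67 among the 35 and differed from the probes above in that OE did not reach the level of Tainung 67. It rose from 5.33, 5.11 and 4.03 to 12.39, 12.70 and 12.08 in Tainung 67 and from 6.51, 6.33 and 6.94 to 10.41, 9.99 and 10.67 in OE. With NaCl, every OE array was below every Tainung 67 array, by 2.04 log2 units on average, whereas without NaCl OE was higher by 1.78. The responses were 7.57 and 3.76, a difference of -3.81 (SE 0.47, adjusted p = 0.0204). The probe was well above background on 2 of 3 untreated Tainung 67 arrays, so the response there rests partly on a value near background. It passed in 7 of the 12 fits that left out 1 array. It did not pass when processed signals were shifted to the 75th percentile or with the authors' normalized values.

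In a further pair of probes raised in Tainung 67, OE hardly responded. LOC_Os01g62980 (CUST_1754) rose from 11.31, 11.10 and 11.02 to 13.25, 13.22 and 12.93 in Tainung 67, while in OE it was 11.60, 11.52 and 11.65 without NaCl and 11.92, 11.96 and 11.53 with NaCl. The treated and untreated OE arrays overlapped, and the response there was 0.21 against 1.99 in Tainung 67, a difference of -1.78 (SE 0.22, adjusted p = 0.0204). CUST_32487 rose from 7.54, 6.67 and 6.85 to 11.45, 10.20 and 11.16 in Tainung 67, and in OE it read 7.49, 8.39 and 7.25 without NaCl and 7.66, 7.58 and 7.55 with NaCl. Its difference was -4.03 (SE 0.52, adjusted p = 0.0245), and with NaCl it was lower in OE by 3.34. For these probes the untreated genotypes were closer, with OE higher by 0.45 and 0.69, and the gap opened with NaCl. They passed in 7 and 4 of the 12 fits that left out 1 array.

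**Figure D3:**
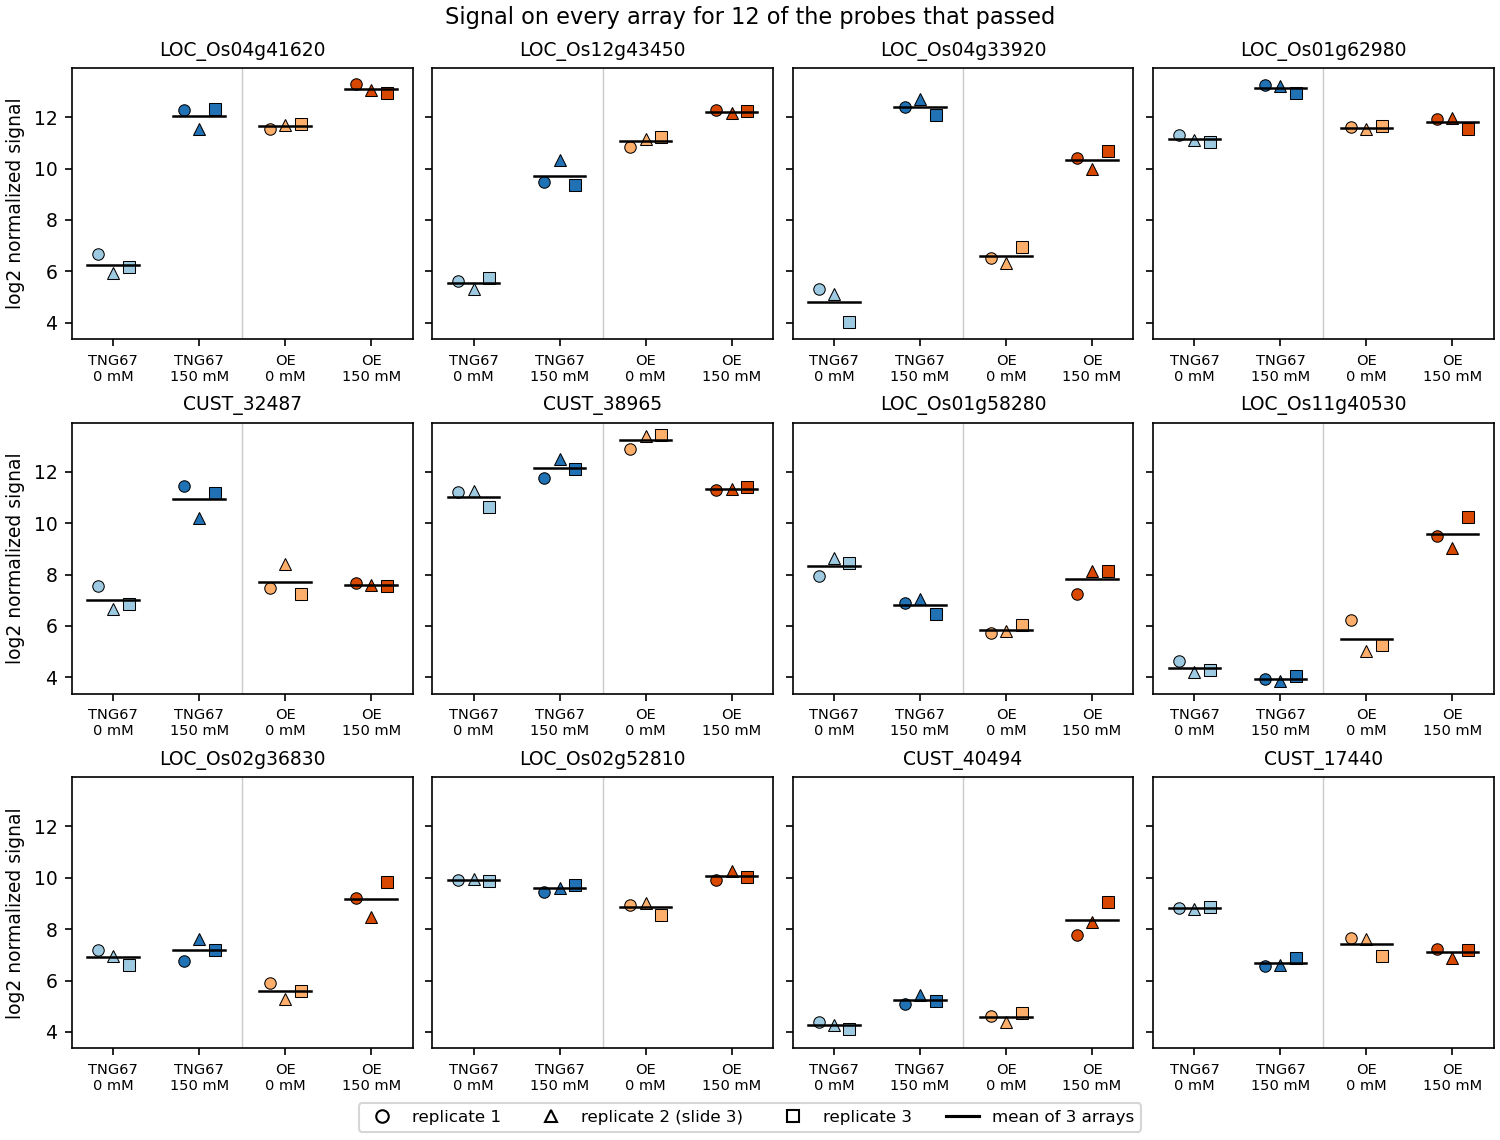
The log2 normalized signal of 12 of the 35 probes on each array, by group (horizontal axis), with replicates 1, 2 and 3 as circles, triangles and squares and the mean of 3 arrays as a bar. In LOC_Os04g41620 the untreated OE arrays stand at 11.53 to 11.74, beside the treated Tainung 67 arrays, while in LOC_Os11g40530 the treated OE arrays alone stand above 9.

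Opposite directions, with both responses passing, were found for 6 probes, and all 6 also passed the difference. In 5 of them NaCl raised the signal in Tainung 67 and lowered it in OE. Their rise in Tainung 67 was 1.03 to 1.1, just past the threshold of 1. Without replicate 2 of Tainung 67 with NaCl this rise was 0.77 to 0.92 and did not pass, while all 5 still passed the difference. CUST_38965 read 11.21, 11.26 and 10.61 without NaCl and 11.77, 12.50 and 12.12 with NaCl in Tainung 67. In OE it read 12.88, 13.39 and 13.42 without NaCl and 11.27, 11.33 and 11.40 with NaCl. The order of the genotypes was thus reversed by NaCl, from OE higher by 2.21 to OE lower by 0.79. The responses were 1.1 and -1.90, a difference of -3.0 (SE 0.33, adjusted p = 0.0113).

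The other 4 probes of this kind, CUST_17576, CUST_1701, CUST_14057 and CUST_13744, had differences of -3.10, -3.07, -3.0 and -2.91. Another 3, CUST_21961, CUST_33466 and CUST_13625, had differences of -3.35, -3.34 and -3.12 and were lowered in OE, while their rise in Tainung 67, of 0.84 to 0.95, did not pass. Across all 8 the response was 0.84 to 1.1 in Tainung 67 and -2.50 to -1.89 in OE. CUST_38965 passed the difference in 11 of the 12 fits that left out 1 array, and the rest of the 8 passed in 2 to 5. CUST_17576, CUST_1701 and CUST_13625 did not pass at the 75th percentile or with the authors' normalized values. Centred on their means, pairs of these 8 probes differed by 0.03 to 0.26 log2 units on average and by at most 0.56 on any array, although their levels in untreated Tainung 67 ran from 8.16 to 12.58. No locus was known for any of them, and whether they read 1 transcript or several is not known, so they were not taken as 8 separate genes.

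The sixth probe moved the other way. LOC_Os01g58280 (CUST_34153) fell in Tainung 67 from 7.96, 8.63 and 8.46 to 6.90, 7.04 and 6.45. In OE it rose from 5.71, 5.81 and 6.05 to 7.23, 8.14 and 8.14. OE was lower by 2.49 without NaCl and higher by 1.04 with NaCl, and in each condition the arrays of the genotypes did not overlap. The difference was 3.53 (SE 0.38, adjusted p = 0.0113). It passed in 11 of the 12 fits that left out 1 array, with the exception of the fit without replicate 3 of OE without NaCl.

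Of the 8 probes raised in OE only, LOC_Os11g40530 (CUST_718) was detected in OE alone, and it was tested only because of its OE arrays. Its spots were too dim to be called well above background in Tainung 67, where it read 4.65, 4.22 and 4.28 without NaCl and 3.93, 3.85 and 4.05 with NaCl. In OE it was detected on every array and rose from 6.24, 5.03 and 5.25 to 9.48, 9.05 and 10.25. With dim readings held to a floor, defined below, its signal with NaCl was about 43.7-fold higher in OE than in Tainung 67. Its response in Tainung 67 was not measured, so the fitted difference of 4.53 (adjusted p = 0.0113) is no size of an effect and has no rank. It did not pass with processed signals shifted to the 75th percentile, with the authors' normalized values or without replicate 3 of OE without NaCl.

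CUST_12261 resembled it, with a mean difference of 0.31 log2 units after centring. It too was dim on all 6 Tainung 67 arrays and rose in OE from 6.71, 5.30 and 6.2 to 9.97, 9.73 and 10.90. By the same floor it was about 55.77-fold higher in OE than in Tainung 67 with NaCl. CUST_40494 was not well above background without NaCl in either genotype. With NaCl it read 5.10, 5.44 and 5.20 in Tainung 67, well above background on 2 arrays, and 7.77, 8.28 and 9.06 in OE. By the same floor NaCl raised it about 13.8-fold in OE and about 1.9-fold in Tainung 67. As both responses rest on undetected readings, the size of their difference was not measured, and the fit gave 2.81 (adjusted p = 0.0283). CUST_12261 and CUST_40494 did not pass with processed signals shifted to the 75th percentile or with the authors' normalized values. For these dim probes each reading was taken at no less than a floor, the lowest signal among probes well above background on that array. The fold is not a strict lower bound, because a reading above the floor can also go undetected. CUST_40494 was not detected on every treated Tainung 67 array, although it read 5.10, 5.44 and 5.20 there.

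LOC_Os02g36830 (CUST_27792) was detected on all arrays. It read 7.18, 6.96 and 6.62 without NaCl and 6.76, 7.62 and 7.18 with NaCl in Tainung 67, where the groups overlapped. In OE it rose from 5.90, 5.30 and 5.61 to 9.19, 8.48 and 9.83. OE was below Tainung 67 by 1.32 without NaCl and above it by 1.98 with NaCl, and the difference was 3.30 (SE 0.47, adjusted p = 0.0347). It passed in 2 of the 12 fits that left out 1 array, and with the replicate number as a block its adjusted p was 0.058.

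Another pair of loci showed the same crossing at a smaller size. LOC_Os01g74510 (CUST_41285) read 6.01, 6.10 and 6.10 without NaCl and 6.53, 6.48 and 6.54 with NaCl in Tainung 67, and 5.0, 5.12 and 5.16 against 7.09, 6.84 and 7.56 in OE. Its difference was 1.62 (SE 0.24, adjusted p = 0.0385). LOC_Os02g52810 (CUST_3712) read 9.91, 9.96 and 9.88 against 9.43, 9.61 and 9.71 in Tainung 67, and 8.95, 9.03 and 8.53 against 9.91, 10.25 and 10.04 in OE. Its difference was 1.56 (SE 0.22, adjusted p = 0.0347). Both were lower in OE without NaCl, by 0.97 and 1.08, and higher with NaCl, by 0.65 and 0.48, and both passed in at most 3 of the 12 fits that left out 1 array. Neither passed at the 75th percentile or with the authors' normalized values, and with a normexp offset of 50 the difference of LOC_Os01g74510 was 0.94 and did not pass. CUST_21090 and CUST_28609 followed the same course, with OE lower by 0.96 and 1.40 without NaCl, higher by 1.07 and 0.65 with NaCl, and differences of 2.03 and 2.05. With the replicate number as a block, the adjusted p of CUST_28609 was 0.0753. CUST_21090 did not pass at the 75th percentile or with the authors' normalized values.

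NaCl lowered 3 probes in Tainung 67 only, and all 3 were already low in OE without NaCl. CUST_17440 fell from 8.81, 8.79 and 8.84 to 6.56, 6.61 and 6.86 in Tainung 67 and read 7.66, 7.63 and 6.95 without NaCl and 7.24, 6.86 and 7.19 with NaCl in OE. Its OE groups overlapped, and the difference was 1.82 (SE 0.28, adjusted p = 0.0467, and 0.0674 with the replicate number as a block). It did not pass at the 75th percentile or with the authors' normalized values. CUST_10237 fell from 6.41, 7.53 and 7.06 to 4.86, 4.67 and 4.88 in Tainung 67, against 4.12, 4.77 and 4.79 without NaCl and 5.07, 4.92 and 4.97 with NaCl in OE. Only 1 of 3 OE arrays in each condition showed it well above background, so its OE response was near the limit of detection, and the fitted difference of 2.62 was 1.37 and did not pass with a normexp offset of 50. CUST_33327 fell in Tainung 67 from 6.24, 6.37 and 6.61 to values not well above background, about 3.91-fold by the floor for dim readings. In OE it was well above background on 1 array, without NaCl. With 3 of its 4 groups at or near background, the response in OE and the size of the difference were not measured. The fit gave 1.67 (adjusted p = 0.0279), and it gave 0.83 with a normexp offset of 50 and 2.32 at the 75th percentile, where it did not pass.

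The remaining 2 probes passed the difference with small responses of opposite sign that did not reach 2-fold. CUST_7038 changed by 0.74 in Tainung 67 and -0.62 in OE, a difference of -1.36 (SE 0.18, adjusted p = 0.0279). CUST_30122 changed by -0.83 and 0.49, a difference of 1.32 (SE 0.20, adjusted p = 0.0443, and 0.0518 with the replicate number as a block). With the authors' normalized values neither probe passed, and at the 75th percentile CUST_30122 did not pass. Both were detected on all 12 arrays at log2 levels between 9.48 and 12.38.

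Of the stress and ion transport genes that the published work names, 6 had a probe with a known locus, and none of the 6 passed the difference. These 6 could be placed only because the study lists them as differing between the genotypes, so they are a selected sample. *OsHKT1.3*, *OsAKT1* and *OsSOS1* were not analysed here. *OsABI5*, which encodes a bZIP transcription factor of ABA signalling, rose in both genotypes. It went from 5.48, 6.0 and 4.56 to 7.01, 8.16 and 6.54 in Tainung 67 and from 7.72, 6.56 and 7.69 to 10.39, 10.17 and 9.60 in OE. The treated OE arrays were above all others. The difference of the responses was 0.84 (95% confidence interval -0.68 to 2.37, adjusted p = 0.838). *OsHOX24*, of the homeodomain-leucine zipper class of transcription factors, had responses of 5.97 and 5.51, and the difference was -0.46 (95% confidence interval -2.43 to 1.51, adjusted p = 0.967). Its treated Tainung 67 arrays read 10.33, 12.69 and 10.29, so that replicate 2 stood about as high as the OE arrays at 12.80, 12.32 and 12.62. The difference was -2.60 on slide 3 and 0.61 on slides 1 and 2.

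*OsSRO1c*, linked to the oxidative stress response, had responses of 4.64 and 4.48 and a difference of -0.16 (95% confidence interval -2.07 to 1.76, adjusted p = 0.989). *OsMAIF1*, which encodes an F-box protein, had responses of 1.36 and 1.90 with its probe dim on 2 of 3 untreated arrays of each genotype, and a difference of 0.54 (95% confidence interval -0.95 to 2.03, adjusted p = 0.929). In both genes, as in *OsHOX24*, the treated replicate 2 of Tainung 67 was the highest array of its group. These intervals include differences of more than 2-fold in either direction for *OsSRO1c* and in the upward direction for *OsMAIF1*, so the arrays do not show that the responses were equal.

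For *OsNAC006*, a member of the NAC transcription factor family, and *OsHKT1.1*, of the HKT sodium transporter family, the difference was narrower. *OsNAC006* did not respond past the threshold in either genotype (0.03 and -0.11), and the difference was -0.14 (95% confidence interval -0.69 to 0.41, adjusted p = 0.962). *OsHKT1.1* changed by 0.92 in Tainung 67 and by 1.03 in OE, a difference of 0.11 (95% confidence interval -0.67 to 0.89, adjusted p = 0.984). For this pair the interval leaves out a 2-fold difference in either direction.

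A further 7 loci listed for this work as candidates for NaCl, ABA and dehydration responses or for cellulose synthesis had a probe with a known locus. With the 6 genes above they made 13 of 61 listed loci, and the rest could not be placed on a probe, whether or not the arrays carry such a probe. None of the 13 passed the difference by limma, against 0.0942% of all tested probes, and 2 of them, LOC_Os01g50700 and LOC_Os01g54620, had an unadjusted p under 0.05. Their loci were known only from the study's lists of genes that differ between the genotypes. The second of these lists holds genes that differ the same way under both conditions. The 13 were thus a selected sample, and their lack of calls cannot be judged against the share of all tested probes. In response to NaCl, 9 passed upward in Tainung 67 (4.96% of all tested probes did) and 11 in OE (6.18%). The median difference was -0.46 for the 5 loci listed under ABA, -0.06 for the 3 under dehydration and -0.03 for all tested probes. The lowest was LOC_Os11g26780, with responses of 6.95 and 4.35 and a difference of -2.61 (95% confidence interval -5.26 to 0.05, adjusted p = 0.594). LOC_Os01g50700 was not above background in untreated Tainung 67. By the floor for dim readings NaCl raised it about 6.58-fold there, against a response of 5.04 log2 units in OE. Its Tainung 67 response rests on undetected readings, so the size of the difference was not measured. The fit gave 2.32 (adjusted p = 0.373), with -0.21 on slide 3 and 3.59 on slides 1 and 2, and it passed at 3.02 (adjusted p = 0.0325) without replicate 2 of Tainung 67 with NaCl. That array was the highest of its group for 12 of the 13 loci.

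Every slide held both NaCl conditions, so the difference can be read on slide 3 alone, with 1 array per group, and on slides 1 and 2, which hold a genotype each. All 35 probes had the same sign on both, and all 35 exceeded 1 log2 unit on slide 3. The 35 were chosen with slide 3 included, so this is a description of them. A choice that left slide 3 out fared less well. The fit to slides 1 and 2 alone passed 862 probes (2.32% of those tested), and of the 861 that slide 3 also measured, 573 (66.6%) had the same sign on slide 3. Their median difference, in the direction of the choice, was 1.48 on slides 1 and 2 and 0.33 on slide 3. The share was 64.2% for the 522 above 0 and 70.2% for the 339 below 0. Of all tested probes, 45.7% were above 0 on slide 3, so these shares do not have the same base.

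**Figure D4:**
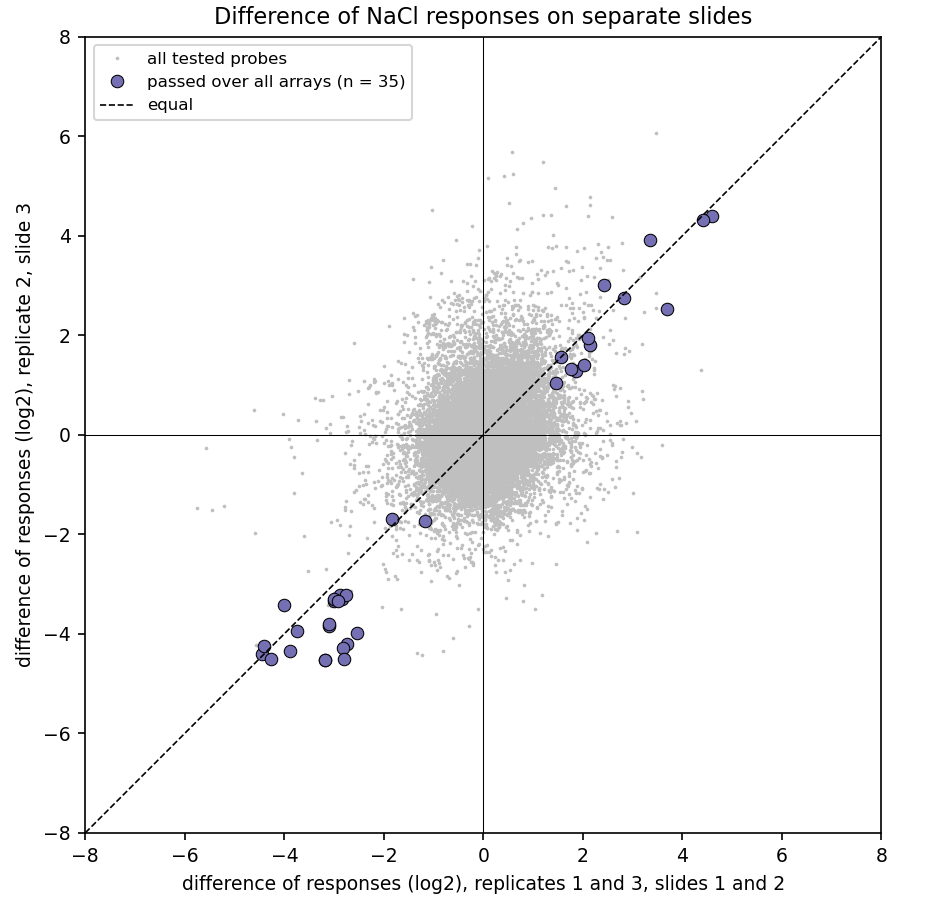
The difference of NaCl responses (log2) of each tested probe on slides 1 and 2 (replicates 1 and 3, horizontal axis) and on slide 3 (replicate 2, vertical axis). The 35 probes that passed (large circles) lie near the dashed line of equal values, with all 35 on the same side of 0 on both axes, and the rest form a cloud around 0.

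The same contrast was seen for probes chosen by their response in 1 genotype. The 727 probes raised only in Tainung 67 on slides 1 and 2 had medians there of 1.27 in Tainung 67 and 0.55 in OE, and on slide 3 of 0.78 and 0.52. The 1451 raised only in OE had medians of 0.56 in Tainung 67 and 1.28 in OE, and on slide 3 of 0.91 and 0.98. On the slide that did not choose them, the probes raised only in OE therefore had similar medians in both genotypes. Their difference was above 0 on slide 3 for 56.8%, against 45.7% of all tested probes. For those raised only in Tainung 67 the share was 33.8%.

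The number of probes that passed depended on single arrays and on the slide. Leaving out 1 array gave between 3 probes (without replicate 3 of OE without NaCl) and 114. For untreated Tainung 67 it was 17 without replicate 1 and 10 without replicate 3, and for treated Tainung 67 it was 10 without replicate 1 and 23 without replicate 3. For untreated OE it was 14 without replicate 1 and 18 without replicate 2. For treated OE it was 13, 17 and 17 without replicates 1, 2 and 3. Only the omission of replicate 2 of untreated Tainung 67, with 44, stayed within 1.5 times of 35. With slide as a fixed block 217 probes passed, with the replicate number as a block 64, and all 35 and 31 of the 35, respectively, were among them. With a normexp offset of 50, at the 75th percentile and with the authors' normalized values, 28, 21 and 20 of the 35 passed. With replicates 1 and 3 of each group averaged into 1 sample none passed, and 684 had an unadjusted p under 0.05 and a difference of more than 2-fold. In every one of these fits the 35 probes kept their sign.

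**Figure D5:**
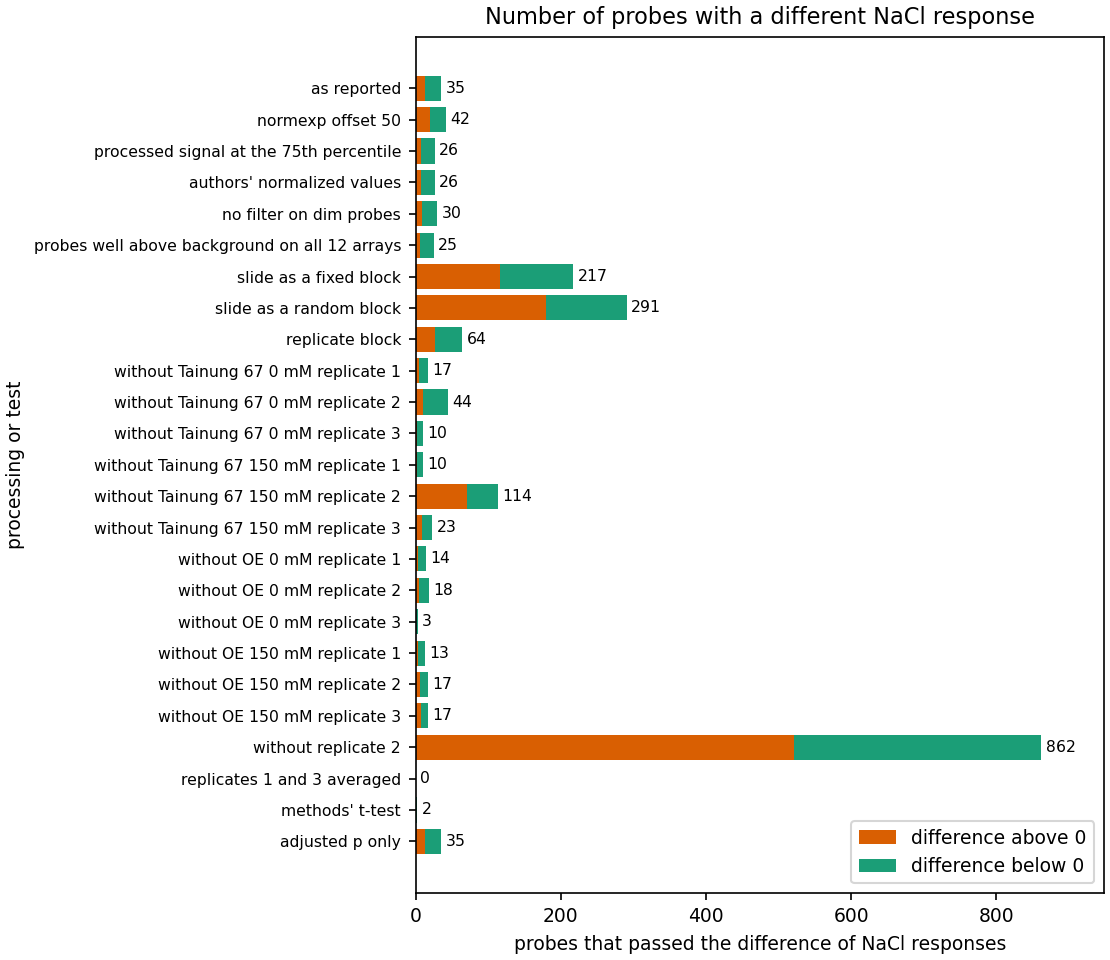
The number of probes that passed the difference of NaCl responses (horizontal axis, from 0) under each way of processing or testing, with differences above 0 and below 0 stacked. The count was 35 as reported, 3 to 114 when 1 array was left out, 862 without replicate 2 of all groups and 0 with replicates 1 and 3 averaged.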

How the data were processed

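The authors deposited the scanner output of 12 single-colour (Cy3) Agilent rice 4x44K arrays, made with Agilent Feature Extraction 10.7.1.1, which holds the intensity of each spot and its local background. Normalized values were deposited as well, which are the log2 processed signal after subtraction of an array constant and the probe's median. Both NaCl conditions lay on every slide.

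Median signals were background-corrected with limma 3.58.1 in R 4.3.3 (normexp, offset 0) and quantile-normalized, 1417 control spots and outlier spots were left out (28 to 57 per array, which left 66 probe values missing), and spots of the same probe were averaged as log2 values. A probe was tested if it was well above background, on at least 50% of its spots, on 3 or more of the 12 arrays. The number of arrays limits the precision. Between 79.3% and 88.0% of probes were well above background, the median signal was 315.5 to 814.5 over a local background of 44 to 50, and 0 spots were saturated. In 1 deposited file the processed signal was rounded, and its median signal was used as given.

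A mean was fitted to each of the 4 groups with limma (lmFit, eBayes), and p-values were adjusted by the Benjamini-Hochberg method over all 37144 probes within a comparison. The threshold was an adjusted p under 0.05 and an absolute log2 value over 1. A 95% confidence interval is the limma interval of the value. The procedure was tested on simulated data with independent noise on every array. The simulation held no slide or replicate effect, so it does not cover the slide differences described above.

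The study's list of regulated genes named 1182 probes. Its list of genes regulated under both conditions gives no probe, and 458 further probes were named by matching the fold change listed there to the deposited values, which hit the right probe for 434 of 435 loci held by both lists. The fold changes and p-values of these lists were not used otherwise.

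Named are all probes that passed and have a locus, the 5 others with the smallest adjusted p in each direction, the 3 largest opposite responses and the members of the lists. No known locus was placed on several probes, and further probes of these genes, if the arrays carry any, were not identified. The sets of similar probes, and the other probes named, were chosen after their values were seen. The members and lists were chosen with earlier results of these data known. The lists covered ABA signalling, dehydration protection, stress regulators, ion transport, peroxide removal, cellulose synthesis, shoot markers and root markers. In the lists of peroxide removal, shoot markers and root markers no locus could be placed on a tested probe, since loci were known only from the study's gene lists. Whether tested probes without a known locus read these genes is not known.

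Arrays with the same replicate number deviated together from their group means (correlations of 0.171 to 0.68 across probes, all over 0.1). Deviations cancel out within a group, so a shift shared by the replicate 2 arrays alone would also make replicates 1 and 3 deviate together. These correlations therefore do not show whether arrays with the same number are paired. The replicate number was used as a block in an alternative fit. The reported fit has no block. Replicate 2 is also slide 3, so number and slide cannot be told apart for it. Column names in the first list give replicates 1 and 3 a shared first number, so whether they are separate samples is not known, and a fit with both averaged is an alternative. The alternatives were other background corrections, scalings, filters, blocks and tests, and leaving out arrays. The slope without replicate 2 of Tainung 67 with NaCl was added after seeing the data. OsERF106 itself was not analysed here.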

Additional observations from a re-analysis of the deposited data

Results flagged for a closer look

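The effect of NaCl differed between the genotypes, by the limma test of that difference, for the probes listed here, with the OE response less the Tainung 67 response on the log2 scale. Below 0 were CUST_35031 (-4.43), LOC_Os04g41620 (-4.35), CUST_35754 (-4.34), LOC_Os04g33920 (-3.81), LOC_Os04g41640 (-3.81), LOC_Os01g28500 (-3.63), CUST_37520 (-3.63), LOC_Os04g41680 (-3.38), CUST_6020 (-3.23), CUST_17576 (-3.10), CUST_1701 (-3.07), LOC_Os12g43450 (-3.01), CUST_38965 (-3.0) and LOC_Os01g62980 (-1.78). Above 0 were LOC_Os11g40530 (4.53), CUST_12261 (4.39), LOC_Os01g58280 (3.53), LOC_Os02g36830 (3.30), CUST_40494 (2.81), CUST_10237 (2.62), CUST_33327 (1.67), LOC_Os01g74510 (1.62), LOC_Os02g52810 (1.56) and CUST_30122 (1.32). For LOC_Os11g40530, CUST_12261, CUST_40494 and CUST_33327 at least 1 group was not above background on any array, so these values come from the fit and are not measured sizes. The search for an outlying array within a group was not run, since it needs more than 3 arrays.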

How the results depend on the processing

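The count of 35 probes with a different NaCl response stayed within 1.5 times under a normexp offset of 50 (42), processed signals at the 75th percentile (26), the authors' normalized values (26), no filter on dim probes (30), probes well above background on all 12 arrays (25) and the adjusted p alone (35). It was 217 with slide as a fixed block, 291 with slide as a random block, 64 with the replicate number as a block, 2 with the methods' t-test after adjustment (827 before it) and 0 with replicates 1 and 3 averaged. Leaving out arrays gave 3 to 862. The share of differences above 0 was 37.1% as reported, 47.6% with the offset of 50, 26.9% at the 75th percentile, 24% with all 12 arrays well above background, and 53.5% and 61.5% with the slide blocks. The block by replicate number took the call from 4 of the 35, LOC_Os02g36830, CUST_30122, CUST_17440 and CUST_28609, and from no other of them. No value turned its direction among the 35. The probes that passed in Tainung 67 (3318) and in OE (3649) numbered 955 and 1020 with replicates 1 and 3 averaged, and 8339 and 9610 by the adjusted p alone, and leaving out arrays gave 2633 to 3712 and 2985 to 5016. The slope of 1.00 was 0.69 on slide 3. The cause of these shifts was not tested. Signal close to background limits the dim probes: 9 of the 35 were dim on at least 1 array.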

Other observations

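Without replicate 2 of Tainung 67 with NaCl, 79 probes passed in addition to the 35, and the largest difference among those with a locus was that of LOC_Os11g19840, at 4.43 (adjusted p = 0.001 by limma) against 3.35 (adjusted p = 0.331) over all arrays. Of the 71 probes above 0 in that fit, 44 were raised in OE only and 13 were raised in both genotypes, more in OE. Examples of the latter are LOC_Os01g65520, with responses of 1.03 and 3.06, and LOC_Os01g19770, with 1.58 and 3.57. Below 0, LOC_Os03g15340 had responses of 2.57 and 0.11 and LOC_Os02g57720 of 2.61 and 0.05. None of these loci passed over all arrays, and they were chosen after their values were seen.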
